A study of Mus musculus with 21 samples.

Results

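A group of 10 genes that encode sensors of foreign RNA and DNA, or the proteins directly attached to them, were followed through 21 polyA RNA-seq libraries from mouse. The members were Ifih1, Rigi, Dhx58, Tlr3, Mavs, Zbp1, Eif2ak2, Adar, Cgas and Sting1, taken by gene symbol from both tables of levels. All 10 of 10 symbols were found among the 31551 genes of the Neuro2a table and among the 39006 genes of the mouse table. They were selected on their levels in these libraries, with the difference between CRISPRa and VP64-only Neuro2a cells known, so that difference is a description for the members: where genes past a threshold are counted over all genes, the members among them are counted too, but as no test of the members.

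CRISPRa raises a gene's own transcription by directing a nuclease-dead Cas9 fused to an activation domain (sadCas9-VP64) with a guide RNA, here aimed at Scn2a, the gene of the sodium channel Nav1.2. Neuro2a is a mouse neuroblastoma line. In 6 CRISPRa libraries the cells had received 750 ng of the guide plasmid and 750 ng of the sadCas9-VP64 plasmid. The 6 VP64-only libraries came from cells given the sadCas9-VP64 plasmid without a guide. The 2 groups thus differ by the whole guide plasmid: its DNA, the guide RNA and its McherryPuro transcript cannot be told apart. Below, "the guide" stands for that plasmid. Library names divide the Neuro2a libraries into set 8 (replicates 4 to 6 of each group) and set 7 (replicates 1 to 3 of each group). The labels do not say what a set is. The mouse libraries were 3 Het CRISPRa, 3 Het and 3 WT, from NeuN-sorted nuclei of cortex of C57BL/6J animals. Het CRISPRa animals were Scn2a+/- and had 500 nL of rAAV carrying the guide and sadCas9-VP64 placed in the medial prefrontal cortex 4 weeks before use. Het animals were Scn2a+/- and WT animals wild type, with no injection named for either in the labels; age is not given in the sources used here. The nuclei came from 200 mg of cortex and carry little of the cytoplasmic mRNA. Nothing in the labels says that replicates came from separate cultures or animals, so p-values measure the spread between libraries, which may be technical.

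Cells detect viral or misplaced nucleic acid with a small set of receptors. MDA5 (Ifih1) and RIG-I (Rigi) bind double-stranded RNA in the cytosol, LGP2 (Dhx58) modulates them, and both signal through MAVS on mitochondria to interferon. TLR3 reads double-stranded RNA in endosomes, ZBP1 reads Z-form nucleic acid, and PKR (Eif2ak2) halts translation when it binds double-stranded RNA. ADAR1 (Adar) edits the cell's own double-stranded RNA and so keeps it from the sensors. cGAS (Cgas) makes cyclic GMP-AMP on cytosolic DNA, and STING (Sting1) receives that messenger. Several of these genes are themselves interferon-induced, through the ISRE, the interferon-stimulated response element of their promoters. Levels are given in CPM (reads per 1000000), and differences as differences in log2(CPM + 0.5) with their standard error (SE) from limma, called "log2 change" below.

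Promoters were matched by symbol in a RefSeq table of GRCm38.p6 (250 bases before to 50 after a start), which gave 9 promoters for 7 of the 10 members; the submitters' processing notes name mm39 and GRCm39. Dhx58, Zbp1 and Sting1 were not matched. The ISRE core was searched as GAAA, any 2 bases and GAAA again, on both strands. ISRE core letters stood in 3 promoters, those of Ifih1, Rigi and Eif2ak2, and occur in 3.44% of the 32851 promoters of the same length in the table. All of these matches lie just after the start, their first bases being base 33 for Ifih1, base 3 for Rigi and base 19 for Eif2ak2, counted from 1 at the start. The windows of 30 bases are shown because these are the members whose promoters hold the core (capitals mark the core; each reads 5′ to 3′ on the gene's strand, which is minus for all of them). They lie at chr2:62646206-62646235, chr4:40239804-40239833 and chr17:78882535-78882564.
Ifih1: gagaagagaatcGAAACAGAAAccgatctg
Rigi: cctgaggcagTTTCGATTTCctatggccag
Eif2ak2: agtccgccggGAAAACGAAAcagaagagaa
The searched letters were not in the windows of Tlr3, Mavs, Cgas and Adar, the last with 3 promoters. The 250 bases before the start are shown for the cytosolic RNA receptors Ifih1 (chr2:62646256-62646505, minus strand) and Rigi (chr4:40239826-40240075, minus strand), whose levels ran closest to that of Zbp1 among the matched members; neither stretch holds the core.
Ifih1 upstream: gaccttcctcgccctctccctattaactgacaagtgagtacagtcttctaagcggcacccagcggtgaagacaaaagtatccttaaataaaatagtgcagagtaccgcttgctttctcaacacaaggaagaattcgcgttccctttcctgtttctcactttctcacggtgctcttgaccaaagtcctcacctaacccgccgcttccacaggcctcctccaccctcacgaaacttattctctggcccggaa
Rigi upstream: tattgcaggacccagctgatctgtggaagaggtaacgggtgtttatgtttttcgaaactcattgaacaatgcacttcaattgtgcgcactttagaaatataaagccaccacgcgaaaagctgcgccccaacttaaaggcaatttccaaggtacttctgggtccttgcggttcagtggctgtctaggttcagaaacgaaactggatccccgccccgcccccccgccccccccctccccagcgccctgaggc

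Depth was 15.5 to 21.0 M reads (M, 1000000) in the Neuro2a libraries and 15.5 to 20.1 M in the mouse libraries, where 3 reads correspond to 0.143 to 0.193 CPM and 0.149 to 0.193 CPM. All 10 line markers of neuroblastoma were present in Neuro2a, whereas C1qa, C1qb, C1qc and Trem2 of the microglia list were at 0 or not listed there; the 9 neuronal markers summed to 3049.5 to 3432 CPM in the nuclei. The targeted Scn2a stood at 4.61 ± 0.50 CPM in CRISPRa against 3.09 ± 0.23 CPM in VP64 only (SD, n = 6 each), and at 271 ± 17.7 CPM in Het CRISPRa, 229.7 ± 28.7 CPM in Het and 250.3 ± 18.8 CPM in WT nuclei (SD, n = 3 each). The guide plasmid's McherryPuro feature was at 0 in every VP64-only, Het and WT library. The sadCas9Vp64 transcript averaged 599.8 ± 34.3 CPM in CRISPRa against 349 ± 27.5 CPM in VP64 only in set 8, but 1977 ± 256 CPM in CRISPRa against 2549.6 ± 83.7 CPM in VP64 only in set 7 (SD, n = 3 each). Which of the 2 groups had more sadCas9Vp64 thus differed between sets. In CRISPRa cells McherryPuro averaged 1727 ± 181 CPM in set 8, against 5296 ± 599.6 CPM in set 7 (SD, n = 3 each), so CRISPRa had more of it in both sets. The part of either transgene in the results below was not tested.

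The cytosolic receptors for double-stranded RNA were at higher levels with the guide in both sets of Neuro2a libraries. Ifih1 (ENSMUSG00000026896) had 87.6, 97.5 and 92.7 CPM in CRISPRa against 45.5, 36.7 and 39.4 CPM in VP64 only in set 8. In set 7 it had 123, 111 and 124 CPM in CRISPRa against 60.8, 66.1 and 70.6 CPM in VP64 only. Every CRISPRa library was above every VP64-only library, in either set and across them. The log2 change of Ifih1 was 1.02 ± 0.16 over both sets, 1.19 ± 0.07 within set 8 and 0.86 ± 0.07 within set 7. Rigi (ENSMUSG00000040296) had 197, 196 and 206 CPM in CRISPRa against 121, 123 and 109.7 CPM in VP64 only in set 8, and 279, 259 and 268 CPM in CRISPRa against 179, 175 and 189.5 CPM in VP64 only in set 7. Its groups did not overlap either, at a ratio of means of 1.57 over both sets and log2 changes of 0.76 ± 0.05 within set 8 and 0.57 ± 0.05 within set 7. Dhx58 (ENSMUSG00000017830), the receptor relative that lacks signalling domains, had 53.8, 55.1 and 62.8 CPM in CRISPRa against 26.7, 22.3 and 24.8 CPM in VP64 only in set 8. In set 7 the values were 92.8, 92.0 and 84.6 CPM in CRISPRa against 38.2, 42.8 and 45.9 CPM in VP64 only. The Dhx58 groups were apart throughout, with log2 changes of 1.20 ± 0.08 in set 8 and 1.08 ± 0.08 in set 7.

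The endosomal receptor Tlr3 (ENSMUSG00000031639) had 57.0, 66.1 and 61.5 CPM in CRISPRa against 36.5, 38.1 and 35.9 CPM in VP64 only in set 8. In set 7 it had 131, 111 and 125 CPM in CRISPRa against 56.1, 57.4 and 70.4 CPM in VP64 only. Groups were apart within each set but overlapped across sets, since the CRISPRa libraries of set 8 reached only the VP64-only level of set 7 (means of 61.5 and 61.3 CPM). The log2 change was 0.73 ± 0.08 in set 8 and 0.99 ± 0.08 in set 7. Mavs (ENSMUSG00000037523), the mitochondrial adaptor through which MDA5 and RIG-I signal, showed small differences. It had 86.6, 89.7 and 93.1 CPM in CRISPRa against 81.6, 81.1 and 85.4 CPM in VP64 only in set 8, and 96.9, 99.5 and 94.9 CPM in CRISPRa against 92.9, 100.1 and 104 CPM in VP64 only in set 7. The groups overlapped in set 7 and were narrowly apart in set 8, with log2 changes of 0.12 ± 0.05 in set 8 and -0.03 ± 0.05 in set 7.

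Zbp1 (ENSMUSG00000027514), the Z-form nucleic acid sensor that can start necroptosis, had the widest relative range of the 10. In set 8 it had 17.9, 22.2 and 24.9 CPM in CRISPRa against 0.715, 0.597 and 0.569 CPM in VP64 only, the last being 15, 10 and 9 reads. In set 7 it had 66.5, 60.6 and 68.8 CPM in CRISPRa against 7.30, 7.38 and 8.84 CPM in VP64 only. All 4 combinations of group and set stood apart, in the order CRISPRa set 7, CRISPRa set 8, VP64-only set 7 and VP64-only set 8. The ratio of means was 34.5 in set 8 and 8.33 in set 7. On the log2(CPM + 0.5) scale the change was 4.29 ± 0.13 in set 8 and 2.98 ± 0.13 in set 7; the set 8 value depends on the pseudocount, being 4.90 with 0.1 and 3.79 with 1.

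The effector kinase and the editing enzyme had high levels and small differences. Eif2ak2 (ENSMUSG00000024079) had 176, 186 and 172 CPM in CRISPRa against 148, 136 and 139 CPM in VP64 only in set 8, and 210.0, 193 and 199 CPM in CRISPRa against 172, 171 and 197 CPM in VP64 only in set 7. The groups were apart in set 8 and overlapped in set 7, where 1 VP64-only library reached 197 CPM. Its log2 change was 0.33 ± 0.05 in set 8 and 0.16 ± 0.05 in set 7. Adar (ENSMUSG00000027951) had 230.4, 249 and 231 CPM in CRISPRa against 191, 178 and 177 CPM in VP64 only in set 8, and 263, 244 and 243 CPM in CRISPRa against 221, 222 and 224 CPM in VP64 only in set 7. The Adar groups did not overlap within or across sets, at log2 changes of 0.38 ± 0.04 in set 8 and 0.17 ± 0.04 in set 7. With median-of-ratios scaling the set 7 changes were 0.083 for Adar and 0.070 for Eif2ak2, and neither passed the limma threshold used below; nor did Eif2ak2 in set 7 with no filter or without CRISPRa replicate 1 or VP64-only replicate 1 or 2 (0.12 to 0.16). Gene-level values cannot separate the interferon-inducible ADAR1 isoform from the constitutive one.

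In the DNA branch the difference depended on the set. Cgas (ENSMUSG00000032344) had 12.4, 14.4 and 12.2 CPM in CRISPRa against 13.3, 14.2 and 10.7 CPM in VP64 only in set 8, where the groups overlapped. In set 7 it had 24.1, 25.6 and 26.7 CPM in CRISPRa against 15.8, 17.2 and 19.3 CPM in VP64 only, with no overlap. Its log2 change was 0.03 ± 0.11 in set 8 and 0.54 ± 0.11 in set 7. Sting1 (ENSMUSG00000024349) had 35.4, 36.9 and 40.5 CPM in CRISPRa against 46.4, 40.9 and 40.9 CPM in VP64 only in set 8, the CRISPRa libraries being the lower ones. In set 7 it had 33.2, 32.0 and 33.9 CPM in CRISPRa against 20.3, 22.8 and 21.1 CPM in VP64 only, the CRISPRa libraries being the higher ones. The log2 change of Sting1 was -0.18 ± 0.07 in set 8 and 0.62 ± 0.07 in set 7.

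**Figure D1:**
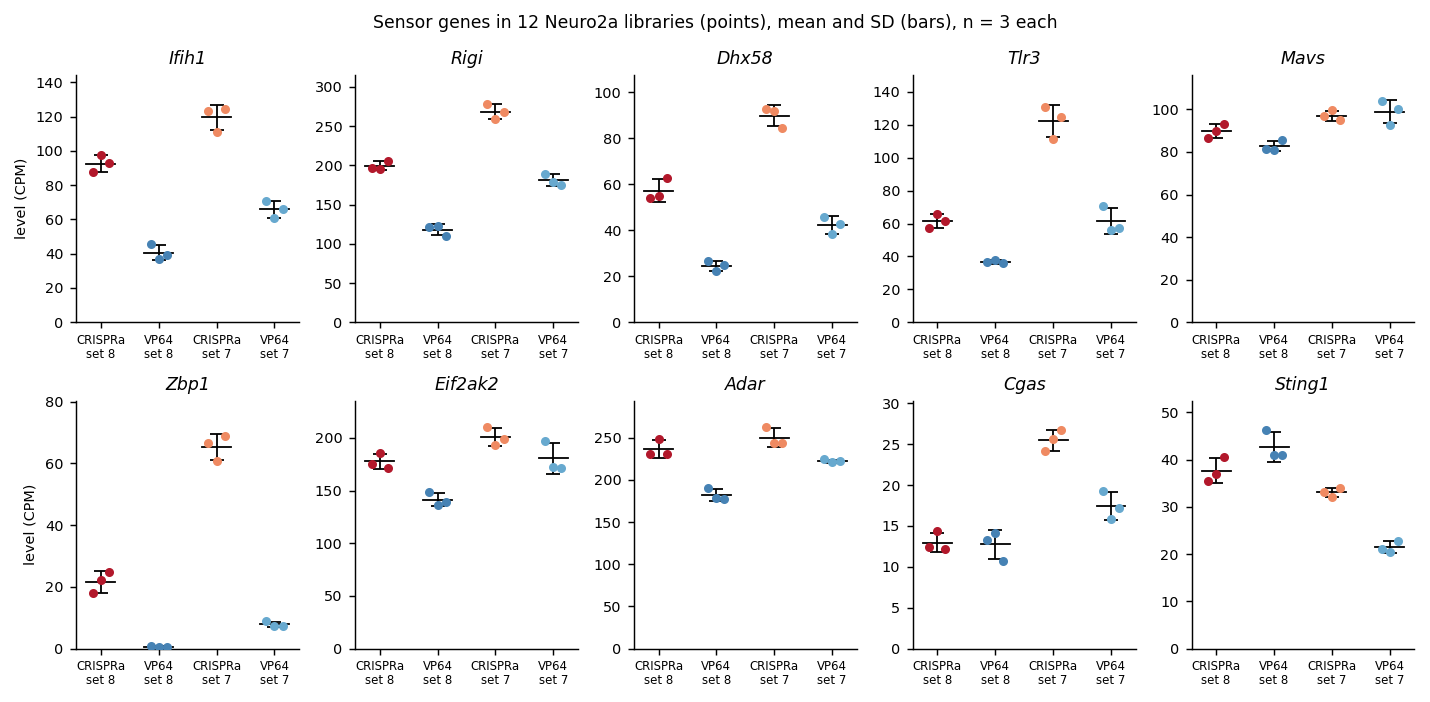
Level in CPM (vertical axis, from 0) of each sensor gene in the 12 Neuro2a libraries, by group and library set; points are libraries and black bars the mean and SD of 3. Ifih1, Rigi, Dhx58, Zbp1 and Adar were higher in every CRISPRa library than in any VP64-only library, while Sting1 was lowest in VP64-only set 7.

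Over both sets, the median of the 10 log2 changes was 0.47, against 0.055 for all 14398 genes tested. With limma (Benjamini-Hochberg over all genes, threshold 0.05) 15.0% of all genes passed, 10.0% as higher and 5.02% as lower, and 6 members lay past that threshold, all as higher, namely Zbp1, Dhx58, Ifih1, Tlr3, Rigi and Adar. Tlr3 and Adar did not pass under some alternatives, with limma adjusted p up to 0.070 and 0.051. With median-of-ratios scaling the split of all genes was 1063 higher and 1104 lower, instead of 1443 and 723. The groups did not overlap for 5 of the members, all higher in CRISPRa, against 8.75% of all genes (5.74% higher and 3.01% lower). Within set 8, 7 members lay past the threshold, all as higher, where 24.8% of all genes did (14.4% higher and 10.4% lower), and within set 7 it was 9 members, all as higher, where 46.7% of all genes did (29.7% higher and 17.0% lower). With median-of-ratios scaling, set 8 had 1643 higher and 1973 lower genes instead of 2073 and 1502, with 7 members as higher and Sting1 as lower, and set 7 had 3085 higher and 3401 lower genes instead of 4276 and 2443, with 7 members as higher. Libraries did not overlap for 8 members as higher and Sting1 as lower within set 8 (38.4% of all genes, 21.9% higher and 16.5% lower), and for 8 as higher within set 7 (54.2%, 34.6% higher and 19.6% lower). Since the members were picked with these values known, the counts carry no evidence about them. Same-numbered libraries correlated across genes after removal of group means (0.305 to 0.499), but not after removal of set means (-0.0708 to 0.0229). They thus shared their set and showed no further pairing. With the replicate number as a block 4513 of all genes and 7 members passed, Eif2ak2 being the added one. The authors' deposited table gave the same 6 members past its adjusted p threshold, with log2 fold changes between 0.21 for Adar and 3.29 for Zbp1.

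**Figure D2:**
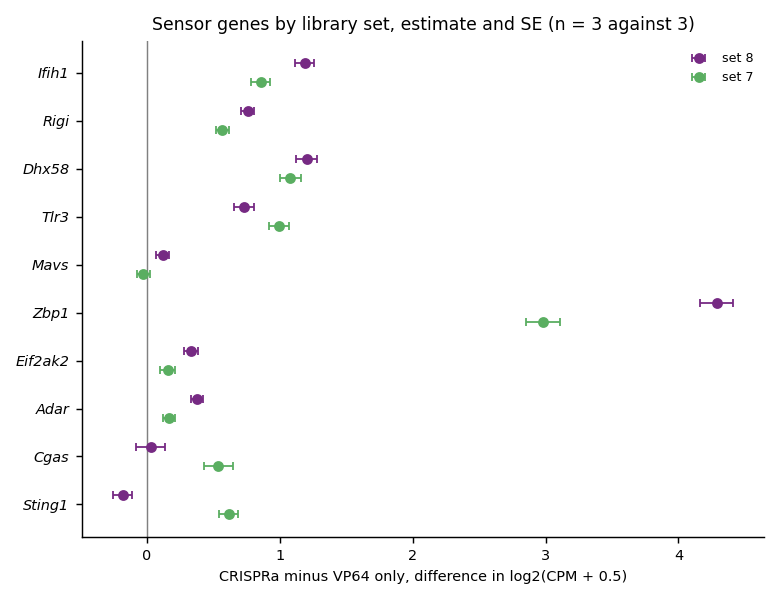
Difference between CRISPRa and VP64 only in log2(CPM + 0.5) (horizontal axis) for each sensor gene, with set 8 and set 7 as separate points and bars for the SE, n = 3 against 3 libraries. Zbp1 stands far to the right in both sets, Sting1 lies left of 0 in set 8 and right of it in set 7, Cgas lies near 0 in set 8 only, and Mavs lies near 0 in both.

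Per kilobase of exon, the order of levels was read within each set, since the sets stood apart. In CRISPRa cells of set 8, Eif2ak2 led at 34.7 ± 1.41 CPM per kb, followed by Adar at 29.1 ± 1.28, Rigi at 28.3 ± 0.80 and Mavs at 26.8 ± 0.98 CPM per kb. Dhx58 at 17.5 ± 1.48, Sting1 at 13.7 ± 0.96, Tlr3 at 11.8 ± 0.87 and Ifih1 at 11.3 ± 0.60 CPM per kb came next, and Zbp1 at 6.14 ± 1.00 and Cgas at 3.15 ± 0.29 CPM per kb were lowest (SD, n = 3). Adar and Rigi, Rigi and Mavs, and Tlr3 and Ifih1 did not differ beyond their spread there, read as overlap of mean ± SD between neighbours. In CRISPRa cells of set 7 the order was Eif2ak2 at 39.3 ± 1.65, Rigi at 38.1 ± 1.40, Adar at 30.8 ± 1.34, Mavs at 29.0 ± 0.70 and Dhx58 at 27.4 ± 1.38 CPM per kb. Below them were Tlr3 at 23.5 ± 1.89, Zbp1 at 18.5 ± 1.20, Ifih1 at 14.6 ± 0.90, Sting1 at 12.1 ± 0.35 and Cgas at 6.17 ± 0.31 CPM per kb (SD, n = 3). Eif2ak2 and Rigi, Adar and Mavs, and Mavs and Dhx58 overlapped in that sense. Zbp1 was therefore above Ifih1 and Sting1 in set 7 and below both in set 8. In VP64-only cells Eif2ak2, Mavs, Adar and Rigi led in that order in both sets, from 27.6 ± 1.22 to 16.7 ± 1.01 CPM per kb in set 8 and from 35.3 ± 2.88 to 25.7 ± 1.07 CPM per kb in set 7. Zbp1 was lowest, at 0.178 ± 0.022 CPM per kb in set 8 and 2.22 ± 0.24 CPM per kb in set 7, below Cgas at 3.09 ± 0.44 and 4.23 ± 0.42 CPM per kb (SD, n = 3 each).

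The 2 sets were compared within each group, as a contrast that shares its libraries with the guide comparison but not its direction. Since the members were selected on their levels in these same libraries, the adjusted p given here describe the members and are no test of them. Among VP64-only cells, all 10 members passed (limma, 45.7% of all genes did, 19.9% as higher and 25.9% as lower): 9 were lower in set 8 than in set 7 and Sting1 was higher. The libraries of the sets did not overlap for any of the 10, against 54.5% of all genes (24.2% higher and 30.3% lower). The largest difference was that of Zbp1, 0.627 ± 0.078 CPM in set 8 against 7.84 ± 0.86 CPM in set 7 (SD, n = 3 each), a log2 change of -2.88 ± 0.13 (limma adjusted p = 8.6e-13). Dhx58 differed by -0.77 ± 0.08, Tlr3 by -0.72 ± 0.08, Ifih1 by -0.70 ± 0.07 and Rigi by -0.62 ± 0.05 on the log2 scale, with limma adjusted p between 2.5e-09 and 2.1e-07. Cgas (-0.44 ± 0.11, limma adjusted p = 0.0022), Eif2ak2 (-0.35 ± 0.05), Adar (-0.29 ± 0.04) and Mavs (-0.26 ± 0.05) followed. Sting1 was higher, at 42.7 ± 3.15 CPM in set 8 against 21.4 ± 1.26 CPM in set 7, a log2 change of 0.98 ± 0.07 (limma adjusted p = 1.4e-09). The median of the 10 was -0.53, against -0.026 for all genes. The sadCas9Vp64 transcript also differed between the sets, at 349 CPM in set 8 against 2549.6 CPM in set 7. Set and transgene level differ together here and cannot be told apart.

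Among CRISPRa cells 8 members passed (limma, 54.7% of all genes, 33.4% as lower and 21.3% as higher; 3857 higher and 3753 lower with median-of-ratios scaling): 7 were lower in set 8 and Sting1 was higher. Libraries did not overlap for 8 members as lower and 1 as higher, against 59.9% of all genes (23.6% higher and 36.3% lower). Zbp1 led again, with 21.7 ± 3.54 CPM in set 8 against 65.3 ± 4.22 CPM in set 7, a log2 change of -1.58 ± 0.13 (limma adjusted p = 2.5e-09). Tlr3 (-0.98 ± 0.08) and Cgas (-0.95 ± 0.11) were each at about the same ratio of set means, 0.503 for Tlr3 and 0.509 for Cgas. Dhx58 differed by -0.65 ± 0.08, Rigi by -0.43 ± 0.05, Ifih1 by -0.37 ± 0.07 and Eif2ak2 by -0.18 ± 0.05, the last with limma adjusted p = 0.0087, or 0.14 with median-of-ratios scaling. Sting1 was barely past the threshold at 0.18 ± 0.07 (limma adjusted p = 0.040), and was not past it without CRISPRa replicate 1, 2, 5 or 6 (limma adjusted p of 0.058 to 0.19). Mavs (-0.11 ± 0.05, limma adjusted p = 0.060) and Adar (-0.08 ± 0.04, limma adjusted p = 0.13, or 0.00037 on the log2 scale with median-of-ratios scaling) did not pass. The medians were -0.40 for the members and -0.079 for all genes. Both transgenes also differed between the sets, at 0.303 times the set 7 level in set 8 for sadCas9Vp64 and 0.326 times for McherryPuro. Here too set and transgene level cannot be told apart.

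**Figure D3:**
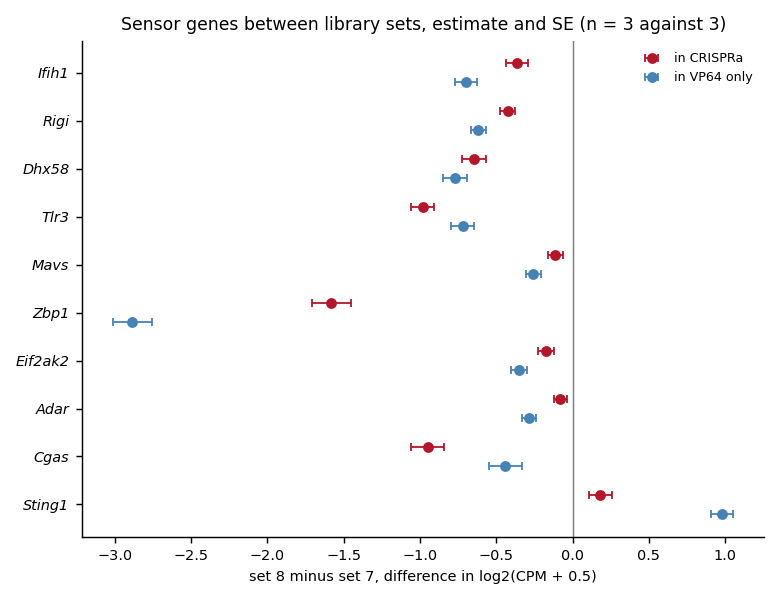
Difference between set 8 and set 7 in log2(CPM + 0.5) (horizontal axis) within CRISPRa and within VP64-only Neuro2a libraries, with bars for the SE, n = 3 against 3 libraries. Sting1 is right of 0 in both groups and the other 9 genes are left of it (Adar in CRISPRa turns to 0.00037 with median-of-ratios scaling), with Zbp1 at -1.58 in CRISPRa and -2.88 in VP64 only.

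Whether the guide's difference itself changed between sets was read as an interaction, the change in set 8 minus the change in set 7. For the members it is a description too, since they were selected on levels in these libraries. Of the members, 6 passed (limma, 21.8% of all genes, 9.42% as higher and 12.3% as lower, or 1793 higher and 1281 lower with median-of-ratios scaling). On the log2 scale 4 had a larger change in set 8 and 2 a smaller one. In CPM the gap between group means was instead wider in set 7 for Zbp1 and, by less, for Rigi and Ifih1. For Adar it was wider in set 8 on both scales. Zbp1 had the largest difference at 1.30 ± 0.18 (limma adjusted p = 3.4e-05), with 0.88 at a pseudocount of 1 and 1.85 at 0.1. Sting1 had -0.80 ± 0.10 (limma adjusted p = 1.7e-05), and the sign of its guide difference was opposite in the 2 sets. Its change within set 8 did not itself pass the threshold, except under some alternatives such as median-of-ratios scaling, and its groups there were narrowly apart. Zbp1 and Sting1 passed under every alternative tried. Cgas had -0.51 ± 0.15 (limma adjusted p = 0.022), Ifih1 0.33 ± 0.10 (0.024), Adar 0.21 ± 0.06 (0.021) and Rigi 0.19 ± 0.07 (0.048), and each of those lost the threshold under some alternative, Rigi also with the replicate block (limma adjusted p = 0.072). The highest adjusted p over their alternatives was 0.065 for Cgas and Adar, 0.10 for Ifih1 and 0.14 for Rigi. Tlr3 (-0.26 ± 0.11, limma adjusted p = 0.089), Eif2ak2 (0.18 ± 0.08, 0.10), Mavs (0.14 ± 0.07, 0.15) and Dhx58 (0.12 ± 0.11, 0.47) did not pass. For Dhx58 the range over alternatives was 0.054 to 0.19 on the log2 scale.

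Levels in CRISPRa of set 8 were also set beside VP64 only of set 7, where sadCas9Vp64 averaged 599.8 CPM in CRISPRa against 2549.6 CPM in VP64 only. Zbp1 was 2.76 times as high there, Sting1 1.76, Ifih1 1.41 and Dhx58 1.35 times, as ratios of means. Tlr3 stood at 1.00, Eif2ak2 at 0.985 and Cgas at 0.744 times. Libraries did not overlap for 6 members as higher and 1 as lower, against 54.0% of all genes (27.2% higher and 26.8% lower). The set and the group differ together in that comparison and cannot be told apart.

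Signalling partners were read from 9 lists of named genes, beside the 10.0% of all genes that rose and the 5.02% that fell with the guide over both sets. These lists were chosen with earlier results of these data known, so their counts and adjusted p are a description and no test. Among RIG-I-like receptor cofactors, 3 of 12 tested genes rose and 2 fell. Ddx60, a helicase reported to promote RIG-I signalling, averaged 73.1 ± 28.7 CPM in CRISPRa against 15.8 ± 7.35 CPM in VP64 only (SD, n = 6 each), a log2 change of 2.20 ± 0.31 (limma adjusted p = 0.00071). Trim25, the ubiquitin ligase that acts on RIG-I, rose by 0.39 ± 0.05 (0.00032), and Lsm14a fell by 0.25 on the log2 scale. Of the MAVS signalling list 3 of 15 rose, Tax1bp1 (0.20 ± 0.04), Gpatch3 (0.87 ± 0.20) and Traf2 (0.26 ± 0.06), with limma adjusted p of 0.0068 to 0.014. Of the shared kinases and transcription factors 6 of 10 rose and 0 fell. Irf7, a master regulator of type I interferon genes, averaged 248 ± 31.0 CPM in CRISPRa against 134 ± 68.3 CPM in VP64 only, a log2 change of 1.05 ± 0.29 (limma adjusted p = 0.026). Irf5 rose by 1.03 ± 0.20, Ikbkg, the scaffold subunit of the IKK complex, by 0.38 ± 0.07 and Ikbkb by 0.30 ± 0.06 (limma adjusted p of 0.0027 to 0.0069). The list's median was 0.32, against 0.055 for all genes.

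In the ZBP1 list 2 of 5 tested genes rose: the kinase Ripk1 by 0.38 ± 0.08 (limma adjusted p = 0.0054) and the necroptosis executioner Mlkl by 1.09 ± 0.29 (0.022). Mlkl averaged 80.4 ± 34.0 CPM in CRISPRa against 36.4 ± 12.7 CPM in VP64 only, whereas Ripk3, the kinase that joins ZBP1 to MLKL, was at 0 in 3 of 6 CRISPRa and 5 of 6 VP64-only libraries. In each of the next 3 lists 1 gene rose, a share near the 10.0% of all genes. Of the endosomal receptor list 1 of 7 rose, Unc93b1, the chaperone that carries these receptors to endosomes (0.32 ± 0.07, limma adjusted p = 0.0078). Of the self nucleic acid list 1 of 12 rose, the DNA exonuclease Trex1, with 3.16 ± 0.74 CPM in CRISPRa against 1.45 ± 0.52 CPM in VP64 only (0.94 ± 0.21, limma adjusted p = 0.0099). Of the PKR and eIF2alpha list 1 of 10 rose, the transcription factor Atf3 (0.58 ± 0.12, limma adjusted p = 0.0049). Of the cGAS-STING list 3 of 16 rose, Trim14 (0.71 ± 0.09), Ddx41 (0.48 ± 0.12) and Ifi203, the last at 0.504 to 3.94 CPM in CRISPRa and at 0 to 0.303 CPM in VP64 only, where 3 reads are 0.143 CPM or more. Of the interferon genes Ifnb1 was the member found, at 0 in 4 of 6 CRISPRa and 6 of 6 VP64-only libraries, too low to test.

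The interaction was also read over the lists, again as a description, since they were chosen with earlier results of these data known. In the cGAS-STING list 6 of 16 genes had a smaller change in set 8 and 0 a larger one, against 12.3% and 9.42% of all genes, with a median of -0.26 against -0.054. Slc19a1, a carrier of cyclic dinucleotides in human cells, had -0.69 ± 0.07 (limma adjusted p = 1.5e-06), with 126 ± 4.43 CPM in CRISPRa against 145 ± 7.80 CPM in VP64 only in set 8, and 159.6 ± 6.77 CPM in CRISPRa against 113 ± 6.92 CPM in VP64 only in set 7. Surf4, which retrieves STING to the endoplasmic reticulum, had -0.34 ± 0.06 (0.00051) and Ddx41 -0.47 ± 0.09 (0.0012). Sting1 and Cgas, which are not counted in that list, had the same sign. In the PKR and eIF2alpha list 5 of 10 had a larger change in set 8 and 1 a smaller one. Ddit3, which encodes CHOP, averaged 236 ± 16.8 CPM in CRISPRa against 199.8 ± 2.25 CPM in VP64 only in set 8, and 165 ± 5.52 CPM in CRISPRa against 243 ± 28.3 CPM in VP64 only in set 7, an interaction of 0.78 ± 0.09 (limma adjusted p = 4.2e-06). Atf4 had 0.31 ± 0.05 (0.00029) and Ppp1r15b, a phosphatase subunit that dephosphorylates eIF2alpha, 0.33 ± 0.06 (0.00044). Of the shared kinases and factors Irf7 had 1.15 ± 0.08 (4.2e-09), Irf5 -0.78 ± 0.19 (0.0055) and Ikbkg -0.24 ± 0.07 (0.019), with 2 of 10 larger and 2 smaller in all. Irf7 stood at 222 ± 16.4 CPM in CRISPRa against 71.7 ± 1.4 CPM in VP64 only in set 8, and at 273 ± 15.2 CPM in CRISPRa against 196 ± 9.88 CPM in VP64 only in set 7. The remaining counts, larger then smaller, were 1 and 2 of 12 for RIG-I-like receptor cofactors, 1 and 1 of 15 for MAVS signalling, 1 and 2 of 12 for the self nucleic acid list, 0 and 0 of 7 for endosomal receptors and 0 and 0 of 5 for the ZBP1 list. Those past the threshold included Tarbp2 (-0.36 ± 0.09, limma adjusted p = 0.0074), the RNA-binding partner of Dicer, Pcbp2 (0.22 ± 0.05, 0.0038), which promotes turnover of MAVS, and Rnaset2a (-0.37 ± 0.08, 0.0019).

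**Figure D4:**
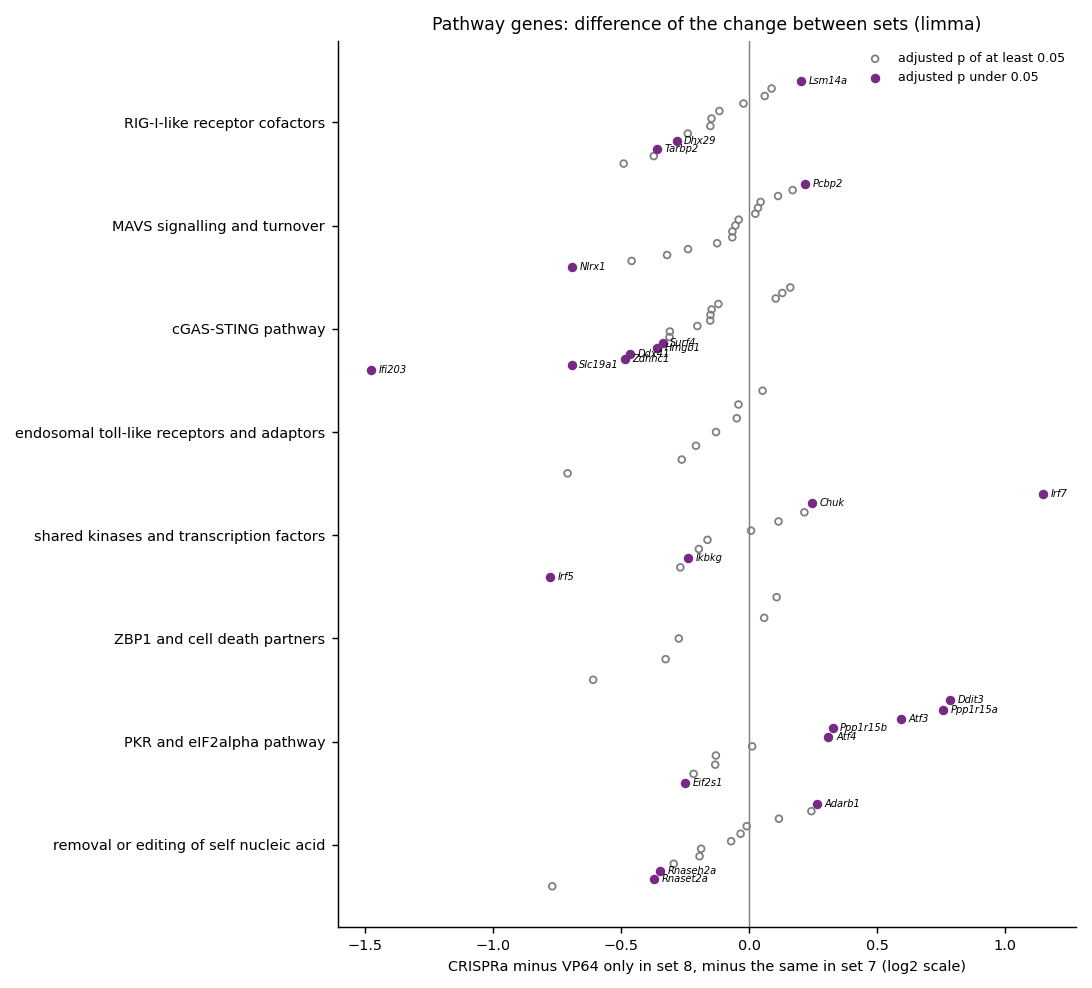
Interaction on the log2 scale (horizontal axis; CRISPRa minus VP64 only in set 8, minus the same in set 7) for each tested gene of 8 pathway lists, filled where the limma adjusted p was under 0.05. The 6 filled cGAS-STING genes lie left of 0, and 5 of the 6 filled PKR and eIF2alpha genes lie right of it.

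Likeness was read from Pearson correlations of log2(CPM + 0.5) across the 12 Neuro2a libraries, which all share the same 2 groups and 2 sets and are a description. Ifih1, Rigi and Dhx58 each ran closest to Zbp1, with Pearson r of 0.990, 0.988 and 0.988. Tlr3 ran closest to Rigi (0.962), Eif2ak2 to Adar (0.948), Adar to Ifih1 (0.965), Cgas to Tlr3 (0.878) and Mavs to Eif2ak2 (0.798). Sting1 had negative r with all the other members, from -0.733 with Mavs to -0.154 with Ifih1. Outside the members, the genes most like the mean standardised profile of the 10 were Ifit3b (0.994), Angptl4 (0.989), Ube2l6 (0.988), Igtp (0.988) and Gbp2 (0.987).

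In cortical nuclei Adar was the single abundant member. It had 297, 305 and 372 CPM in Het CRISPRa, 295, 301 and 323 CPM in Het, and 277, 298 and 314 CPM in WT nuclei, which overlapped in all pairs of groups. Per kilobase it stood at 40.0 ± 5.04 CPM per kb in Het CRISPRa, 37.7 ± 1.79 in Het and 36.5 ± 2.27 in WT (SD, n = 3 each). Dhx58 followed at 1.62 ± 0.18 CPM per kb in Het CRISPRa, 1.48 ± 0.36 in Het and 1.5 ± 0.32 in WT. Cgas stood at 1.14 ± 0.10 CPM per kb in Het CRISPRa, 1.03 ± 0.11 in Het and 1.32 ± 0.18 in WT. Dhx58 and Cgas did not differ beyond their spread in WT or in Het nuclei. Tlr3 (0 to 0.771 CPM), Zbp1 (0 to 0.249 CPM) and Sting1 (0 to 0.496 CPM) were low and did not pass the filter on low values, so 7 of 10 members were tested. In bulk libraries fewer cells expressing a gene and less RNA per cell cannot be told apart.

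No member passed in any of the 3 mouse comparisons (limma): 0 of 7 for Het CRISPRa minus Het, where 0.0422% of all genes passed (0.00527% higher and 0.0369% lower), 0 of 7 for Het CRISPRa minus WT (0.00527%) and 0 of 7 for Het minus WT (0% of all genes). Transgene levels in Het CRISPRa nuclei were low, McherryPuro at 1.63 ± 0.20 CPM and sadCas9Vp64 at 5.21 ± 1.67 CPM (SD, n = 3 each). In Neuro2a CRISPRa cells they averaged 3512 and 1288 CPM. The counts cover all NeuN-sorted nuclei, whether or not the rAAV reached them, and say little about those it reached. At an unadjusted limma p under 0.05, 1 of 7 members and 996 of all 18967 genes tested stood in the first comparison. Of the same genes it was 0 members and 335 genes in the second and 0 members and 951 genes in the third. The authors' deposited tables also held 0 members past the threshold in those comparisons. The member was Rigi, with 3.85, 1.80 and 1.73 CPM in Het CRISPRa and 0.711, 0.969 and 1.4 CPM in Het nuclei, against 1.61, 1.93 and 1.22 CPM in WT nuclei. Het CRISPRa lay above every Het library but overlapped WT, at log2 changes of 0.90 ± 0.32 against Het (limma adjusted p = 0.81) and 0.45 ± 0.32 against WT (limma adjusted p = 1.00). Groups did not overlap for this 1 of 7 members, against 9.98% of all genes (5.37% higher and 4.61% lower). Eif2ak2 had 6.66, 2.29 and 5.30 CPM in Het CRISPRa, 1.78, 3.39 and 2.34 CPM in Het, and 1.61, 2.58 and 3.99 CPM in WT nuclei. Het CRISPRa replicates 1 and 3 were above all others and replicate 2 was among them, at 0.73 ± 0.38 against Het and 0.66 ± 0.38 against WT (limma adjusted p of 0.81 and 1.00). Ifih1 had 0.862, 0.930 and 1.11 CPM in Het CRISPRa and 0.474, 0.606 and 1.19 CPM in Het, against 0.716, 0.253 and 0.450 CPM in WT nuclei. Het CRISPRa was above every WT library, at 0.62 ± 0.30 (limma adjusted p = 1.00), where groups did not overlap for 7.13% of all genes (2.68% higher and 4.46% lower). For Het minus WT this held for 0 of 7 members and 10.7% of all genes (3.37% higher and 7.30% lower).

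Mavs (0.279 to 0.930 CPM), Cgas (3.85 to 5.88 CPM) and Dhx58 (3.78 to 6.11 CPM) overlapped in all pairs of groups, with log2 changes between -0.32 ± 0.20 for Cgas in Het minus WT and 0.14 ± 0.23 for Dhx58 in Het CRISPRa minus Het. Among the pathway lists 0 genes passed in any mouse comparison. In Het CRISPRa replicate 1 Rigi, Eif2ak2 and Dhx58 were at the highest of the 3 Het CRISPRa libraries, whereas Ifih1 (0.862 CPM), Adar (297 CPM) and Sting1 (0.172 CPM) were at the lowest, and Mavs and Cgas between. Also highest there, among genes chosen after their values were seen, were the interferon regulator Irf7, at 4.48 CPM beside 0.930 and 0.948 CPM in the other 2, and the cofactor Ddx60, at 2.41 CPM beside 0.434 and 1.62 CPM, as was sadCas9Vp64, at 7.12 CPM beside 4.09 and 4.4 CPM. The part of sadCas9Vp64 in these levels was not tested. Microglia markers, all 10 of which were detected, summed to 36.2 to 40.4 CPM in Het CRISPRa, 33.7 to 53.5 CPM in Het and 31.6 to 46.3 CPM in WT nuclei, so their range in Het CRISPRa lay inside that of the other groups.

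**Figure D5:**
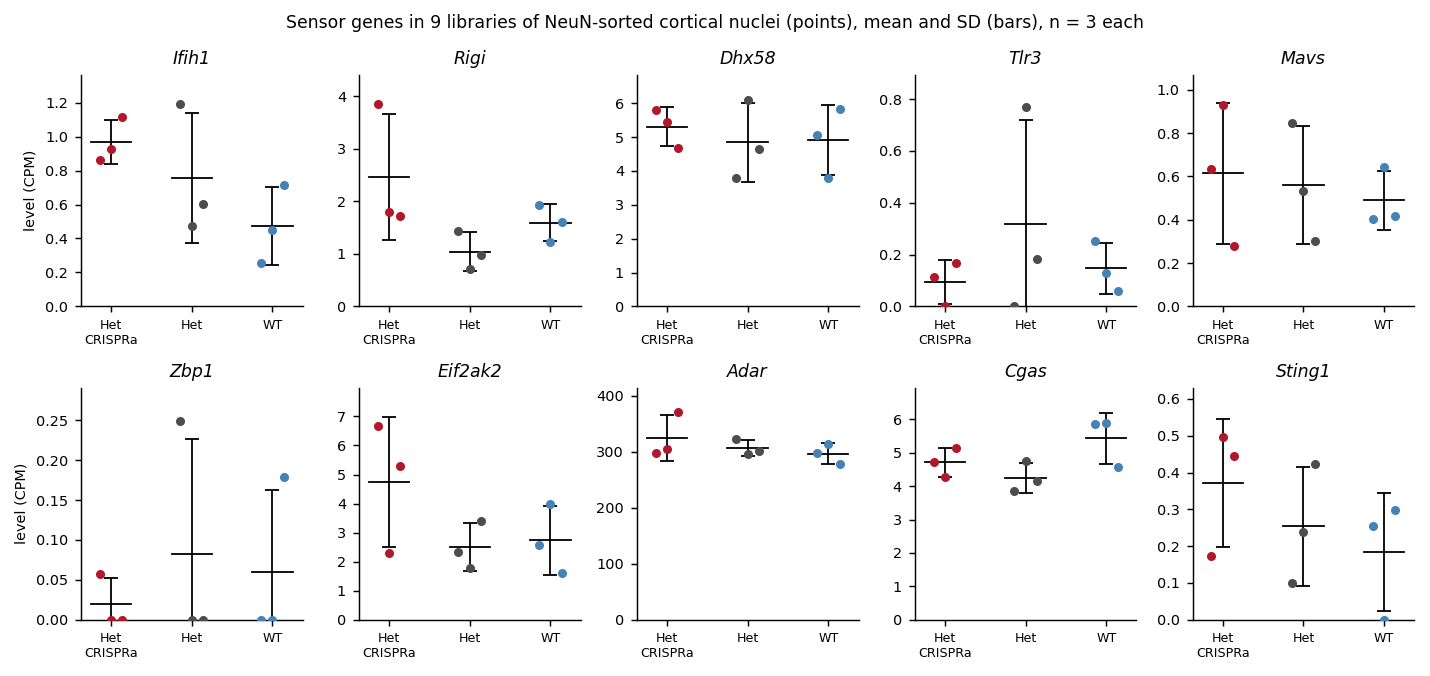
Level in CPM (vertical axis, from 0, with a scale of its own in each panel) of each sensor gene in the 9 libraries of NeuN-sorted cortical nuclei; points are libraries and black bars the mean and SD of 3, cut off at 0. Adar stands near 300 CPM in every group and the other 9 genes lie below 7 CPM, with overlapping groups except Rigi against Het and Ifih1 against WT in Het CRISPRa.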

How the data were processed

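PolyA RNA-seq levels of 10 sensor genes were analysed in 12 Neuro2a and 9 mouse libraries. The tools listed in the submitters' processing notes were STAR 2.7.8a and featureCounts, R 4.4 and DESeq2 1.44, beside the builds mm39 and GRCm39, with no role or order. The deposited tables of levels hold CPM, per the file headers; the tool that made them and the strandedness are not given in the sources used here. The authors' deposited tables of comparisons hold a log2 fold change with a standard error. Each p-value in them is the authors' own, raw or adjusted.

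CPM values were not whole reads (70.8 to 73.2% of Neuro2a and 79.9 to 82.4% of mouse values above 0 lay within 0.01 of one), so no count test was run. Depth was taken from the value of 1 read. Tests used limma 3.58.1 in R 4.3.3 (eBayes with trend). The fit was checked on simulated data without the wide difference between sets seen here, so that setting was not checked. Genes that reached 0.5 CPM in 6 or more Neuro2a libraries or 3 or more mouse libraries were kept, which left 14398 and 18967 genes. Their values were taken as log2(CPM + 0.5). A fold change on that scale understates the change of low genes. The Benjamini-Hochberg adjustment ran over all genes tested, with 0.05 as the threshold. Set contrasts and the interaction used a model with 1 mean per group and set. Floors of 3 reads cover counting error only.

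The members, lists and tests were chosen with earlier results of these data known. All members are named, and up to 3 genes of each other list with the smallest p past the threshold; Irf7 in the guide comparison, Ripk3, Ifnb1 and the levels of Ddx60 and Irf7 in nuclei were chosen after their values were seen. Same-numbered Neuro2a libraries correlated at 0.305 to 0.499 across genes after removal of group means, and at -0.0708 to 0.0229 after removal of set means, and were treated as pairs in 1 alternative. Exon lengths came from GENCODE M21 and promoters from RefSeq. Other alternatives changed the pseudocount, filter, scaling and libraries.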

Additional observations from a re-analysis of the deposited data

Results flagged for a closer look

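As the members were selected on levels in these libraries, the interaction is a description for them. The 6 sensor genes here were singled out because the difference between CRISPRa and VP64 only, taken as an interaction, passed the threshold (limma, log2 scale, set 8 minus set 7). These were Zbp1 at 1.30, Ifih1 at 0.33, Adar at 0.21 and Rigi at 0.19, with a larger difference in set 8, and Sting1 at -0.80 and Cgas at -0.51, with a smaller one. Transcripts of sadCas9Vp64 averaged 599.8 CPM in CRISPRa against 349 CPM in VP64 only in set 8, and 1977 CPM in CRISPRa against 2549.6 CPM in VP64 only in set 7; its part in these differences was not tested. Dixon's test over the 6 libraries of a Neuro2a group found no outlying library in the 20 groups examined, but each group joins 2 sets of 3 that lie apart, which widens its range, so it says little about single libraries.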

How the results depend on the processing

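The number of sensor genes past the threshold stayed within 1.5 times its value in the report under every alternative for CRISPRa minus VP64 only (4 to 8, against 6; 7 to 8 against 7 within set 8, and 7 to 9 against 9 within set 7), set 8 minus set 7 in VP64 only (10 throughout) and in CRISPRa (7 to 9, against 8), and was 0 in all mouse alternatives. For the interaction the count of 6 became 2 with no filter and 3 with quantile scaling, and 3 to 6 when 1 library was left out (3 without CRISPRa replicate 5 or VP64-only replicate 5 or 6); more genes tested enter the first, and the cause of the others was not tested. Ifih1 lost its interaction call without CRISPRa replicate 2 or 5 or VP64-only replicate 3, 5 or 6, Adar without CRISPRa replicate 2 or 5 or VP64-only replicate 5 or 6, Cgas without CRISPRa replicate 3 or 6 or VP64-only replicate 1, 4 or 5, and Rigi without any of CRISPRa replicates 2 to 6 or VP64-only replicate 1, 3 or 6, whereas Tlr3 gained one without CRISPRa replicate 2 or VP64-only replicate 3. With the replicate block 5 members passed the interaction. In CRISPRa minus VP64 only the block gave 7 members and 4513 genes in all, and the library set as a covariate 8 members and 5685 genes, against 6 members and 2166 genes with neither.

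Signs turned in small values that did not pass. Cgas in CRISPRa minus VP64 only within set 8 was -0.0045 with median-of-ratios and -0.023 with quantile scaling, and -0.085 to 0.11 with 1 library left out; Mavs was -0.014 over both sets with median-of-ratios scaling, and 0.0095 within set 7 without VP64-only replicate 3. Adar in set 8 minus set 7 in CRISPRa was 0.00037 with median-of-ratios scaling. Dhx58 in Het minus WT was 0.028 with median-of-ratios and 0.064 with quantile scaling, and -0.18 to 0.13 with 1 library left out; Eif2ak2 there was 0.00078 with quantile scaling. With 1 library left out, the ranges were -0.023 to 0.14 for Adar and -0.011 to 0.30 for Dhx58 and -0.14 to 0.29 for Mavs in Het CRISPRa minus Het, -0.037 to 0.24 for Dhx58 and -0.066 to 0.37 for Mavs in Het CRISPRa minus WT, and -0.00024 to 0.090 for Adar, -0.34 to 0.20 for Eif2ak2 and -0.11 to 0.26 for Mavs in Het minus WT. The genes called in Het CRISPRa minus Het numbered 31 with the replicate block, 5 with only the 6 libraries compared, 2 with no filter or a filter at 2 CPM, 38 without Het replicate 3, 5 without Het replicate 1, 1 without Het CRISPRa replicate 1, and 0 without Het CRISPRa replicate 2 or 3 or Het replicate 2, against 8. Mouse replicate numbers share only a number (correlations of -0.110 to 0.418), and the block there called 0 members. Depth limits Tlr3, Zbp1 and Sting1 in nuclei, where 3 reads are 0.149 to 0.193 CPM.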
